A study of Mus musculus with 22 samples.

Results

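The genes described here were the subunits of AMP-activated protein kinase (AMPK) and 4 genes of the mTOR pathway, 10 genes of the 23361 in the expression matrix. They were Prkaa1 and Prkaa2 (the catalytic α1 and α2 subunits), Prkab1 and Prkab2 (the β1 and β2 subunits), Prkag1 and Prkag2 (the γ1 and γ2 subunits), Mtor, Rptor, Tsc1 and Ddit4. They were picked by gene name, and Prkab1 was selected on its measured difference in level between the diets at 15 months of age. RNA was sequenced from the CA1 field of the hippocampus of 22 female mice, F1 animals of a Swiss Webster by DBA/C57BL6 cross, with 1 library for each mouse. Mice fed ad libitum (AL, the normal diet of the labels) and calorie-restricted mice (CR) were each examined at 5 months (5 AL and 5 CR mice) and at 15 months (6 AL and 6 CR mice). All 4 groups were wild type and were killed under ketamine and xylazine. The CR diet was cut in carbohydrate, began in young adulthood, and was given as a morning meal, with the killing of all mice in the afternoon. Feeding pattern and calorie intake therefore cannot be told apart in the diet comparisons. The CR mice at 15 months had been restricted for longer than those at 5 months. Age and time on the diet therefore cannot be told apart in CR mice or in the age by diet interaction.

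AMPK is a heterotrimer that senses falling cellular energy. The α subunit carries the kinase domain, the β subunit is a scaffold that also binds glycogen, and the γ subunit binds AMP, ADP and ATP. The kinase mTOR, with its partner Raptor (the product of Rptor), forms mTOR complex 1, which drives protein synthesis when nutrients are plentiful. Tsc1 encodes a subunit of the TSC complex, which restrains mTOR complex 1 through the GTPase Rheb, and Ddit4 encodes REDD1, a stress-induced inhibitor of the same pathway. AMPK restrains mTOR complex 1 through Raptor and the TSC complex. Most of this control acts on the proteins, by phosphorylation, and was not measured here.

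The values were FPKM, fragments per kilobase of transcript scaled to the total of mapped fragments, which are corrected for length and so can be compared between genes. Read counts were not given, so the depth behind each value is unknown. Errors given after ± are SDs between mice, n = 5 for the groups at 5 months and n = 6 for those at 15 months. Median FPKM per library was 2.51 to 3.10, and between 18281 and 19175 genes were above 0. The labelled CA1 tissue was checked against marker lists, and no marker was at 0 in any library. The summed FPKM of 6 CA1 pyramidal neuron markers was 217 to 487 in AL mice at 5 months, 286 to 428 in CR mice at 5 months, 172 to 268 in AL mice at 15 months and 84.1 to 416 in CR mice at 15 months. That of 8 neocortex and subiculum markers was 101 to 146, 74.3 to 121, 141 to 229 and 82.8 to 239 in the same order. A region score (the mean log2 level of the latter list minus that of the former) was −2.81 to −1.11 in AL mice at 5 months and −0.38 to 1.48 in AL mice at 15 months, without overlap. It was −2.97 to −2.05 in CR mice at 5 months and −2.82 to 0.79 in CR mice at 15 months. Members of both lists went in both directions with age in AL mice. Of the 6 CA1 markers 4 were called lower, while Mpped1 (log2 fold change −0.16) and Wfs1 (0.63) were not called. Of the 8 neocortex and subiculum markers 4 were called higher and 1, Etv1, lower (−0.68). Tshz2 (1.34), Fezf2 (−0.32) and Nts (−1.03) were not called. Some other marker lists also held genes called for age. Of all genes, 20.6% were called for age in AL mice and 3.36% in CR mice. Of 8 choroid plexus markers 4 were called lower with age in AL mice (median log2 fold change −1.80) and 7 in CR mice (−3.57), and 1 library, replicate 4 of the CR mice at 5 months, summed to 315 FPKM of these markers against at most 74.8 FPKM in any other. Of 6 dentate granule neuron markers 2 were called lower with age in AL mice (median −1.40). Of 7 oligodendrocyte markers 1 was called lower (14.3%, below the share of all genes), with a median of −0.82. Calls went both ways for 6 CA3 markers (1 higher, 2 lower), 6 thalamus markers (2 higher, 1 lower) and 6 astrocyte markers (1 higher, 1 lower). Of 5 microglia markers 1 was called lower, and of 5 endothelium and 5 interneuron markers none was called. The part of these lists in the results below was not tested. Since the region score did not overlap between ages, tissue content and age cannot be told apart in the AL libraries. In bulk tissue, fewer cells of a type and less RNA per cell cannot be told apart either.

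The promoters of Prkab1 and Ddit4 are printed because these genes had the largest diet difference at 15 months and the largest age difference among the 10 genes. Each sequence is from RefSeq on GRCm38.p6, covers 250 bases before the start site and 50 after it, and is written 5′ to 3′ on the gene's own strand. The Prkab1 promoter lies at chr5:116024379-116024678 and that of Ddit4 at chr10:59951721-59952020, both on the minus strand, and the capitals mark ACGTG, the core of the hypoxia response element.
Prkab1: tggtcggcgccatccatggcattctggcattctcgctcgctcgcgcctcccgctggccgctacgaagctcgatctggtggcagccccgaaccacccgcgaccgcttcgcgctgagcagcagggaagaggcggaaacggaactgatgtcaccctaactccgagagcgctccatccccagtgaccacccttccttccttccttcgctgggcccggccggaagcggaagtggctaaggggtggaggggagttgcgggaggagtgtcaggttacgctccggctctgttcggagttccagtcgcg
Ddit4: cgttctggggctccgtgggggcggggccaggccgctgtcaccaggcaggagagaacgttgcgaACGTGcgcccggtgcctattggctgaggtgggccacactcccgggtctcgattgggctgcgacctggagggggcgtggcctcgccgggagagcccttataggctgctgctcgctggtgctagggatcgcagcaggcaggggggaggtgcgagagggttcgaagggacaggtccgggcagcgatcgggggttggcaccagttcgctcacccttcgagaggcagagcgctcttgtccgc
The Prkab1 promoter had a GC content of 65.3% and 30 CpG dinucleotides, and that of Ddit4 69.0% and 26, against medians of 52.7% and 7 over 27025 promoters of the same length. ACGTG, searched on both strands, was found in 19.7% of all promoters and, among the 10 genes, in those of Ddit4 and Rptor. CCAAT was found in 37.9% of all promoters, with 4 matches in Mtor, 2 in Ddit4, 1 each in Prkag1 and Prkag2, and none in Prkab1. A match is a run of letters and not a measured site.

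All 10 genes were measured in every library and passed the minimum for testing, a mean of 0.1 FPKM. In order of mean FPKM over the 22 libraries they were Prkag2 at 45.0, Prkag1 at 34.8, Ddit4 at 30.0, Mtor at 19.3, Prkab2 at 18.0, Rptor at 15.2, Tsc1 at 14.3, Prkaa1 at 10.1, Prkab1 at 7.21 and Prkaa2 at 6.84. The ranges of each neighbouring pair in that order overlapped. The highest library exceeded the lowest by 2.70-fold for Prkaa2, 2.12-fold for Ddit4 and 2.07-fold for Prkab2, and by 1.34-fold for Rptor. Prkag3, the γ3 subunit known from skeletal muscle, reached at most 0.143 FPKM and was not tested. The γ transcripts summed to 72.0 to 84.8 FPKM as group means, against 22.9 to 28.5 FPKM for the β transcripts and 15.9 to 18.1 FPKM for the α transcripts.

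**Figure D1:**
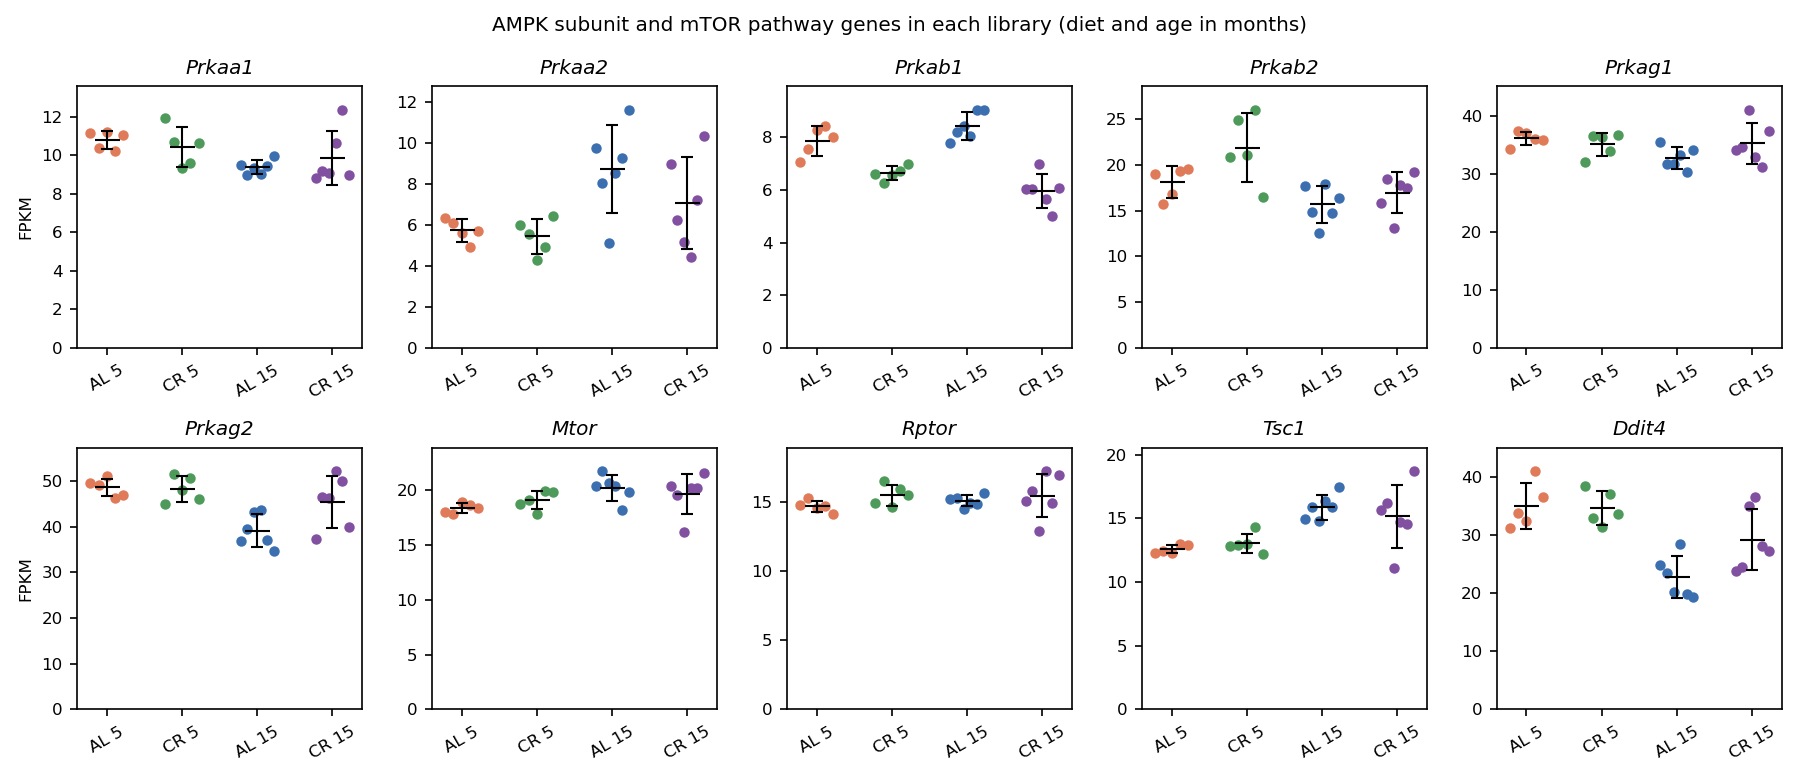
FPKM of each of the 10 genes (vertical axis) in each of the 22 libraries (points), by group, with the group mean and SD. Ddit4 and Prkag2 sit lower in AL mice at 15 months than in AL mice at 5 months, Tsc1 sits higher, and the 6 CR values of Prkab1 at 15 months all lie below the 6 AL values.

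Among the 9 genes tested for age in AL mice, Ddit4 and Prkag2 fell and Tsc1 rose, and the other 6 did not pass the test. Thus 3 of 9 genes were called by limma at an adjusted p under 0.05, beside 20.6% of the 16978 genes tested, and 7 of 9 had an unadjusted p under 0.05, beside 35.2% of all genes. The groups did not overlap for 4 of the 9 genes (Ddit4, Prkag2, Prkaa1 and Tsc1), beside 14.0% of all genes. In CR mice none of the 9 genes was called for age, beside 3.36% of all genes, and 3 had an unadjusted p under 0.05, beside 18.0% of all genes. No gene of the 9 was free of overlap between CR mice at 5 and 15 months, beside 3.26% of all genes. The age differences in AL and in CR mice were not shown to differ: the age by diet interaction called none of the 9 genes and 0% of all genes, with an unadjusted p under 0.05 for 1 of the 9 (Ddit4) and for 1301 genes in all.

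For diet at 15 months, none of the 9 genes other than Prkab1 was called, beside 0.742% of all genes, and 2 (Ddit4 and Prkag2) had an unadjusted p under 0.05, beside 17.1% of all genes. None of the 9 was free of overlap between the diets at that age, beside 0.984% of all genes. For diet at 5 months, none of the 10 genes was called, beside 0% of all genes (1 gene without the variance trend), while 789 genes in all and 2 of the 10 (Prkab1 and Prkab2) had an unadjusted p under 0.05. Prkab1 alone of the 10 was free of overlap between the diets at 5 months, beside 1.36% of all genes. Comparisons that use the same mice, such as age in AL mice and diet at 15 months, share the AL libraries at 15 months and are not independent.

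**Figure D2:**
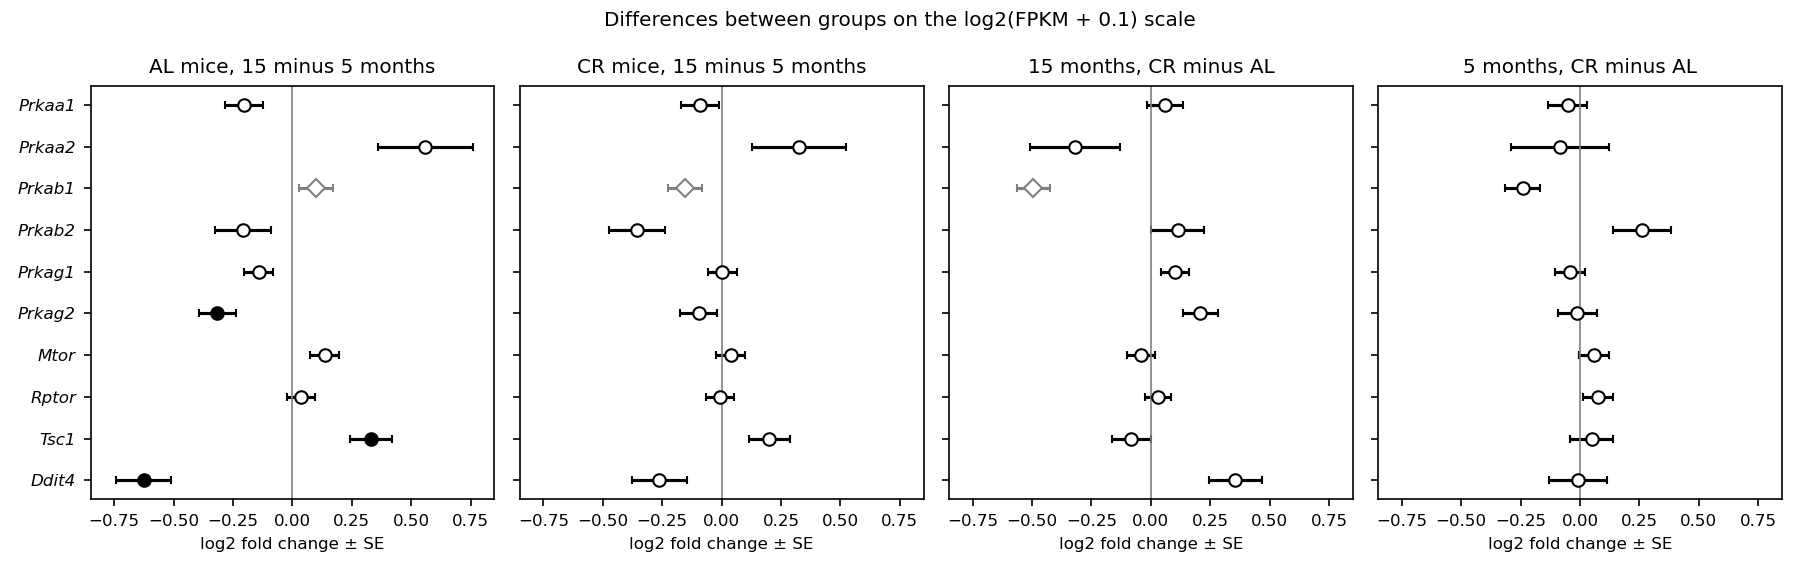
Log2 fold change and SE (horizontal axis) of each of the 10 genes for age in AL mice, age in CR mice, diet at 15 months and diet at 5 months, with filled points for an adjusted p under 0.05 and grey diamonds where Prkab1 is described without a test. The 3 filled points are Ddit4 at −0.63, Prkag2 at −0.32 and Tsc1 at 0.33, all for age in AL mice.

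Of the catalytic subunits, Prkaa1 (chromosome 15, 5143861 to 5181899) was expressed above Prkaa2 in the groups at 5 months, and the 2 transcripts came closer at 15 months. Prkaa2 (chromosome 4, 105029874 to 105109890) encodes the α2 subunit, a catalytic subunit prominent in neurons and muscle. Its FPKM was 6.34, 6.10, 5.61, 4.91 and 5.71 in the 5 AL mice at 5 months and ran from 5.14 through a median of 8.87 to 11.6 in AL mice at 15 months. All but 1 of the older AL mice lay above all the younger ones. The log2 fold change was 0.56 (SE 0.20), the largest positive difference among the 9 genes, and narrowly missed the threshold (adjusted p = 0.0501). The 5 younger CR values were 6.01, 5.57, 4.30, 4.90 and 6.42 FPKM and the older ones ran from 4.43 through 6.72 to 10.3 FPKM. These groups overlapped, with a log2 fold change of 0.32 (SE 0.20, adjusted p = 0.407). The diets at 15 months overlapped as well, at a log2 fold change of −0.32 for CR against AL (SE 0.19, adjusted p = 0.402). With the region score as a covariate, the age difference of Prkaa2 turned to −0.08 in AL mice (adjusted p = 0.927) and −0.11 in CR mice (adjusted p = 0.852).

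Prkaa1 encodes the α1 subunit, which is present in most cell types. Its level in AL mice was 11.1, 10.4, 11.2, 10.2 and 11.0 FPKM at 5 months and ran from 8.96 through 9.40 to 9.96 FPKM at 15 months. The groups did not overlap, yet the log2 fold change of −0.20 (SE 0.08) did not pass the test across all genes (adjusted p = 0.0741). In CR mice the older values ran from 8.80 to 12.4 FPKM around a median of 9.12, against 9.36 to 11.9 FPKM at 5 months, and the log2 fold change was −0.09 (SE 0.08, adjusted p = 0.581). The α2 transcript made up 34.6% ± 1.97 of the summed α FPKM in AL mice at 5 months and 47.6% ± 6.32 in AL mice at 15 months. The shares in CR mice were 34.1% ± 2.23 and 41.2% ± 9.17. The share in older CR mice spanned 29.4% to 53.5%, covering the ranges of both younger groups.

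Of the scaffold subunits, Prkab1 was lower in CR than in AL mice at both ages, untested at 15 months and not called at 5 months. Prkab2 was not called in any comparison either. Prkab1 (chromosome 5, 116013586 to 116024508) encodes β1. At 15 months, the comparison it was selected on, its FPKM ran from 7.77 through a median of 8.31 to 9.04 in AL mice and from 5.01 through 6.03 to 6.98 in CR mice. All 6 CR mice lay below all 6 AL mice, and the CR mean was 0.709 of the AL mean, a log2 difference of −0.49 that is given as a description without a test. At 5 months, in mice that played no part in that selection, the AL values were 7.05, 7.57, 8.27, 8.44 and 8.002 FPKM and the CR values 6.59, 6.26, 6.58, 6.71 and 6.998 FPKM. All 5 CR mice lay below all 5 AL mice, though the highest CR mouse and the lowest AL mouse were close, at 6.998 and 7.05 FPKM.

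The log2 fold change of Prkab1 for diet at 5 months was −0.24 (SE 0.07). It did not pass limma's test across all genes (adjusted p = 0.899, unadjusted p = 0.00413). An exact two-sided permutation test of Prkab1 alone gave p = 0.00794, the smallest that 252 relabelings of 5 against 5 mice allow. Groups without overlap always give that smallest p, so the test restates the lack of overlap and adds no separate support. Prkab1 is 1 of 231 genes whose diets did not overlap at 5 months. The AL means were 7.86 ± 0.562 FPKM at 5 months and 8.41 ± 0.527 FPKM at 15 months, and the CR means were 6.63 ± 0.264 FPKM and 5.96 ± 0.640 FPKM. The mean was thus higher at 15 than at 5 months in AL mice and lower in CR mice, by log2 differences of 0.10 and −0.16. The ages overlapped in both diets, and these differences were not tested because they share the 15-month libraries. With the region score as a covariate, the log2 diet differences of Prkab1 were −0.52 at 15 months and −0.25 at 5 months. The value at 15 months is again of the comparison that Prkab1 was selected on and is only a description. The part of tissue content in either was not tested.

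Prkab2 (chromosome 3, 97658193 to 97673812), the β2 subunit, had the opposite direction for diet at 5 months. The AL values were 19.0, 15.7, 16.8, 19.3 and 19.6 FPKM and the CR values 20.9, 24.9, 21.0, 26.0 and 16.5 FPKM, so that 4 of 5 CR mice lay above all AL mice. The log2 fold change was 0.26 (SE 0.12, adjusted p = 1, unadjusted p = 0.0470). At 15 months the diets overlapped throughout, at 12.6 to 17.9 FPKM in AL and 13.1 to 19.3 FPKM in CR mice (log2 fold change 0.11, SE 0.11, adjusted p = 0.636). The age difference of Prkab2 in CR mice was −0.36 (SE 0.12, adjusted p = 0.105), and without replicate 4 of the CR mice at 5 months it passed the test (adjusted p = 0.0398). That fit called 347 genes in all for age in CR mice, against 570 with all libraries. Replicate 4 had the lowest Prkab2 of its group and is the library with 315 FPKM of choroid plexus markers. The β2 transcript made up 69.6% ± 2.46 of the summed β FPKM in AL and 76.4% ± 3.88 in CR mice at 5 months, and 64.9% ± 3.79 and 73.8% ± 4.53 at 15 months. These shares contain Prkab1 and are given as a description. The summed β levels of the diets overlapped at 15 months, at 24.1 ± 1.88 FPKM in AL and 22.9 ± 1.89 FPKM in CR mice.

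The nucleotide-binding γ subunits were the most abundant of the AMPK transcripts. Prkag2 (chromosome 5, 24862744 to 25100642), the γ2 subunit whose mutations are known for heart disease, was 49.4, 49.1, 51.0, 46.4 and 47.0 FPKM in AL mice at 5 months. It ran from 34.6 through a median of 38.2 to 43.6 FPKM in AL mice at 15 months, below every younger AL mouse. The log2 fold change was −0.32 (SE 0.08, adjusted p = 0.00818). Among CR mice the younger values were 44.9, 51.5, 47.9, 50.7 and 46.1 FPKM and the older ones ran from 37.4 through 46.3 to 52.1 FPKM. These overlapped, at a log2 fold change of −0.10 (SE 0.08, adjusted p = 0.549). At 15 months 5 of 6 CR mice lay above the AL median, with a log2 fold change of 0.21 for CR against AL (SE 0.08, adjusted p = 0.170). This diet difference passed the test without replicate 0 of the CR mice at 15 months (adjusted p = 0.0402). That fit called 732 of the 16978 genes for diet at 15 months, against 126 with all libraries. The mouse left out had the highest region score of its group, 0.79.

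Prkag1 (chromosome 15, 98812797 to 98831521), the broadly expressed γ1 subunit, was not called in any comparison. In AL mice it was 34.4 to 37.4 FPKM at 5 months and 30.3 to 35.5 FPKM at 15 months (log2 fold change −0.14, SE 0.06, adjusted p = 0.105). In CR mice the means were 35.1 ± 2.05 FPKM and 35.3 ± 3.50 FPKM. The γ2 share of the γ1 and γ2 sum was 57.3% ± 1.12 in AL mice at 5 months and 54.3% ± 3.05 at 15 months, and 57.9% ± 1.63 and 56.1% ± 4.50 in CR mice. In GENCODE M21 on GRCm38, 43.7% of the exon bases of Prkag1 overlap the antisense gene B130046B21Rik, and 12.3% of those of Prkag2 overlap Prkag2os2. The library kit does not mark strand, so reads of these genes and of their antisense partners cannot be told apart.

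Of the mTOR complex genes, neither Mtor nor Rptor was called in any comparison. Mtor (chromosome 4, 148448611 to 148557683), the kinase itself, was 17.7 to 18.9 FPKM in AL mice at 5 months and 18.2 to 21.7 FPKM at 15 months, a log2 fold change of 0.14 (SE 0.06, adjusted p = 0.112). The diets overlapped at 15 months, with means of 20.2 ± 1.15 FPKM in AL and 19.6 ± 1.82 FPKM in CR mice. Rptor (chromosome 11, 119602905 to 119899576) had the smallest fold between its highest and lowest library of the 10 genes (1.34), with group means between 14.7 and 15.5 FPKM. Its largest log2 fold change in absolute size was 0.08, for diet at 5 months (SE 0.06, adjusted p = 1).

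Tsc1 (chromosome 2, 28641228 to 28691167), the scaffold of the TSC complex, rose with age in AL mice. It was 12.3, 12.4, 12.3, 13.0 and 12.9 FPKM at 5 months and ran from 14.8 through a median of 15.9 to 17.5 FPKM at 15 months. Every older AL mouse lay above every younger one, and the log2 fold change was 0.33 (SE 0.09, adjusted p = 0.0118). In CR mice the younger values were 12.9, 12.9, 13.0, 14.3 and 12.2 FPKM and the older ones ran from 11.1 through 15.2 to 18.7 FPKM. Here 1 older mouse, replicate 2, lay below all the younger ones, and the log2 fold change was 0.20 (SE 0.09, adjusted p = 0.224). Without that mouse the age difference of Tsc1 in CR mice passed the test (adjusted p = 0.0166), in a fit that called 700 genes in all, against 570. At 15 months the diets overlapped, at a log2 fold change of −0.08 (SE 0.08, adjusted p = 0.643).

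Ddit4 (chromosome 10, 59949669 to 59951834) had the largest age difference of the 9 genes. It was 31.2, 33.8, 32.5, 41.0 and 36.6 FPKM in AL mice at 5 months and ran from 19.3 through a median of 21.9 to 28.6 FPKM at 15 months. All 6 older AL mice lay below all 5 younger ones. The mean at 15 months was 0.650 of that at 5 months, and the log2 fold change was −0.63 (SE 0.12, adjusted p = 0.00131). In CR mice the younger values were 38.4, 33.0, 31.4, 37.1 and 33.7 FPKM, close to the AL values of the same age (log2 fold change for diet at 5 months −0.01, SE 0.12, adjusted p = 1). The older CR mice ran from 23.9 through 27.8 to 36.5 FPKM and overlapped the younger ones, with a log2 fold change for age of −0.26 (SE 0.12, adjusted p = 0.239). At 15 months all 6 CR mice lay above the AL median, with a log2 fold change of 0.36 for CR against AL (SE 0.11) that did not pass the test (adjusted p = 0.124). It passed without replicate 0 of the CR mice at 15 months (adjusted p = 0.0460), a fit that called 732 genes in all, against 126 with all libraries. The interaction for Ddit4 was 0.36 (SE 0.17, adjusted p = 0.639, unadjusted p = 0.0398).

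The 3 genes called for age in AL mice were also examined beside the region score, which did not overlap between the ages in AL mice. With that score as a covariate, the log2 fold change for age was −0.29 for Ddit4 (SE 0.16, adjusted p = 0.478), −0.09 for Prkag2 (SE 0.10, adjusted p = 0.777) and 0.24 for Tsc1 (SE 0.14, adjusted p = 0.497). None of the 9 genes was then called, and 0 genes in all. In CR mice at 15 months, where the score spread from −2.82 to 0.79, the mouse with the lowest score (replicate 3) had 4.43 FPKM of Prkaa2, the lowest of its group, and 52.1 FPKM of Prkag2 and 36.5 FPKM of Ddit4, the highest of its group. Replicate 4, with a score of 0.64, had 7.19 FPKM of Prkaa2, near the middle of the group, and 49.9 FPKM of Prkag2, the second highest. Replicate 4 also had the highest summed CA3 markers of the 22 libraries, 124 FPKM, and their lowest mean log2 level of CA1 markers, 2.38. The relation of these genes to the score was not tested.

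**Figure D3:**
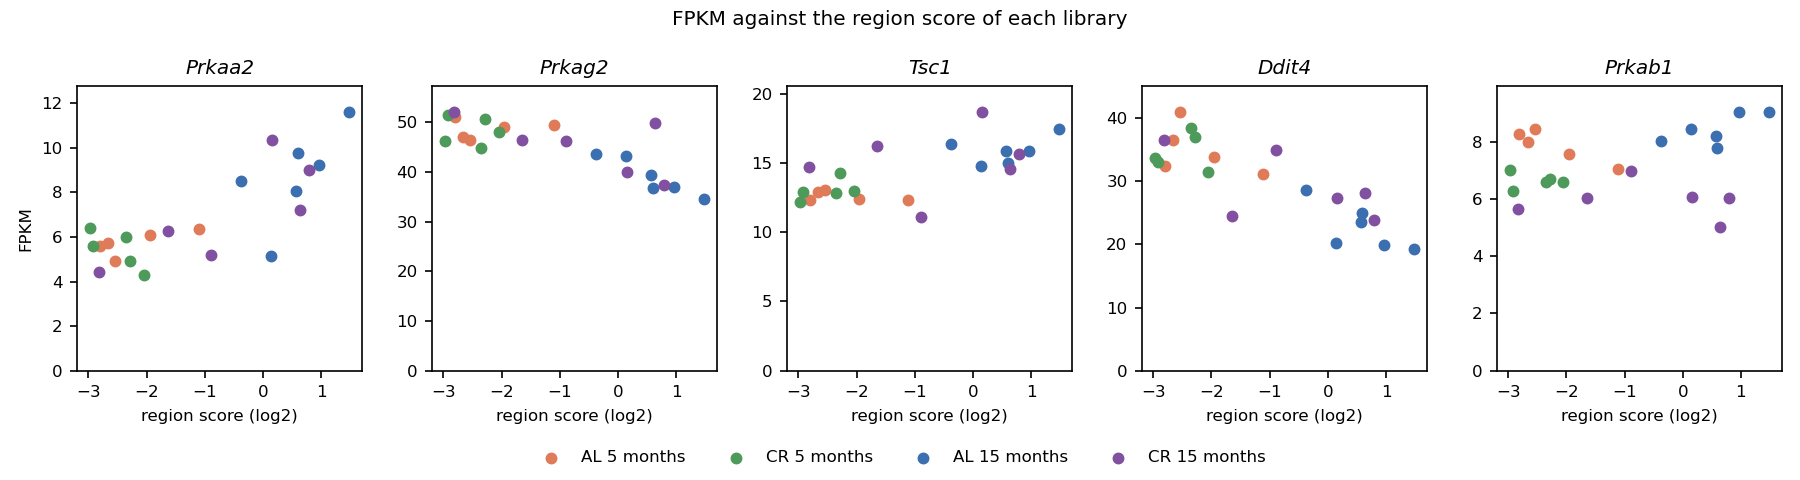
FPKM of Prkaa2, Prkag2, Tsc1, Ddit4 and Prkab1 (vertical axes) against the region score of the same library (horizontal axis, log2 units, higher with more neocortex and subiculum marker RNA relative to CA1 marker RNA), with points by group. The AL libraries at 15 months lie at −0.38 and above and those at 5 months at −1.11 and below, while the CR libraries at 15 months spread from −2.82 to 0.79.

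Across the 22 libraries, several of these genes varied together on the log2 scale. The strongest Pearson correlations were −0.829 between Prkaa2 and Prkag2, 0.752 between Prkag2 and Ddit4, 0.742 between Mtor and Tsc1, 0.690 between Prkaa2 and Tsc1, and −0.685 between Tsc1 and Ddit4. Mtor and Rptor had a correlation of 0.616. The largest in absolute size for Prkab1 was −0.429, with Prkag2. The libraries share group differences and tissue content, so these are descriptions without a test. The spread between mice also differed: the coefficient of variation was higher in CR than in AL mice at 15 months for 10 of 10 genes, beside 65.8% of all genes tested. It ran from 9.27% (Mtor) to 32.0% (Prkaa2) in CR mice and from 2.68% (Rptor) to 24.6% (Prkaa2) in AL mice of that age.

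The rest of the pathway was examined in lists of known regulators and targets, of which 76 of 77 genes were tested. For age in AL mice 21 of the 76 genes (27.6%) were called, 13 higher and 8 lower, beside 20.6% of all genes. Their median log2 fold change was −0.03, beside −0.0018 over all genes. For age in CR mice 4 of 76 (5.26%) were called, 3 higher and 1 lower, beside 3.36% of all genes. None of the 76 was called by limma for diet at 15 months, diet at 5 months or the interaction, with an unadjusted p under 0.05 for 9, 1 and 1 of them, beside 17.1%, 4.65% and 7.66% of all genes.

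Upstream of AMPK, none of 8 kinases and partners, among them Stk11 (LKB1) and Camkk2, was called for age in AL mice. Of 13 direct AMPK targets 4 rose and none fell, beside 20.6% of all genes called. Foxo3, a transcription factor of stress resistance, went from 8.79 ± 0.760 FPKM to 13.4 ± 1.84 FPKM in AL mice (log2 fold change 0.60, SE 0.10, adjusted p = 0.000749). It also rose in CR mice (0.41, SE 0.10, adjusted p = 0.0288). Ulk1, the kinase that starts autophagy, rose by 0.29 (SE 0.08, adjusted p = 0.0122) and Acaca, the acetyl-CoA carboxylase of fatty acid synthesis, by 0.28 (SE 0.09, adjusted p = 0.0329) in AL mice. Among 6 folliculin and sestrin genes, Sesn3, a sestrin linked to both kinases, was the 1 gene called, from 14.4 ± 2.71 FPKM to 23.4 ± 3.38 FPKM, a log2 fold change of 0.71 (SE 0.14, adjusted p = 0.00177).

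Among 6 partners of mTOR complex 1, Deptor, an inhibitory subunit, rose in AL mice from 1.59 ± 0.770 FPKM to 4.50 ± 1.80 FPKM, a log2 fold change of 1.42 (SE 0.41, adjusted p = 0.0201). Tti2, of the complex that helps assemble mTOR, rose by 0.53 (SE 0.11, adjusted p = 0.00185), and the other 4 were not called. Of 4 partners of mTOR complex 2, Mapkap1 fell, at −0.33 (SE 0.07, adjusted p = 0.00442). Rheb, the GTPase that activates mTOR complex 1, fell from 83.7 ± 6.37 FPKM to 71.9 ± 7.27 FPKM, at −0.22 (SE 0.07, adjusted p = 0.0416), while the related Rhebl1 rose by 0.53 (SE 0.17, adjusted p = 0.0282). Tsc2 and the other 2 genes of that list were not called. Of all genes, 20.6% were called for age in AL mice.

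Of 10 Rag GTPase and Ragulator genes, which place mTOR complex 1 on the lysosome when amino acids are present, 1 rose and 3 fell with age in AL mice. In that comparison 20.6% of all genes were called. The amino acid sensor Slc38a9 rose by 0.40 (SE 0.11, adjusted p = 0.0172), and Lamtor4 (−0.32, SE 0.10, adjusted p = 0.0301) and Lamtor2 (−0.28, SE 0.09, adjusted p = 0.0361) were among those that fell. Of 12 GATOR and KICSTOR genes, which relay amino acid levels to the Rag GTPases, 3 fell with age in AL mice, among them Sec13 (−0.35, SE 0.09, adjusted p = 0.0133). Of 12 outputs of mTOR complex 1, 3 rose and none fell, beside 20.6% of all genes called. Grb10, an adaptor that dampens insulin signalling, went from 7.62 ± 0.761 FPKM to 16.3 ± 2.35 FPKM (log2 fold change 1.08, SE 0.18, adjusted p = 0.000602). Eif4ebp3, a repressor of translation, rose in AL mice (0.39, SE 0.10, adjusted p = 0.0103) and in CR mice (0.38, SE 0.10, adjusted p = 0.0442). Lpin1, a phosphatidic acid phosphatase, also rose in both, by 0.26 (SE 0.07, adjusted p = 0.0152) and 0.30 (SE 0.07, adjusted p = 0.0268).

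Ddit4 is known to be induced by glucocorticoids and by hypoxia, and both lists were counted beside it. Of 8 glucocorticoid-induced genes 2 rose and 2 fell with age in AL mice, beside 20.6% of all genes called. Fkbp5, a chaperone of the glucocorticoid receptor, fell from 23.4 ± 2.04 FPKM to 13.7 ± 3.37 FPKM, at −0.80 (SE 0.17, adjusted p = 0.00341). Errfi1, a feedback inhibitor of the EGF receptor, fell at −0.68 (SE 0.11, adjusted p = 0.00068), while Cdkn1a, which encodes the cell cycle inhibitor p21, rose by 1.06 (SE 0.26, adjusted p = 0.00692). Of 8 hypoxia-induced genes Adm, which encodes the vasodilator adrenomedullin, was the 1 gene called, at 0.87 (SE 0.21, adjusted p = 0.00648). The 8 genes went in both directions, from −0.50 to 0.87 with a median of 0.20. A link of either list to Ddit4 was not tested. Neither list had a gene called for diet at either age, with an unadjusted p under 0.05 at 15 months for 3 of the 8 glucocorticoid-induced and 2 of the 8 hypoxia-induced genes (17.1% of all genes), and for 0 of each at 5 months (4.65% of all genes). Adding the region score to the fit left 0 of all 16978 genes called for age in AL mice, so the 0 genes of these lists are not particular to them.

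**Figure D4:**
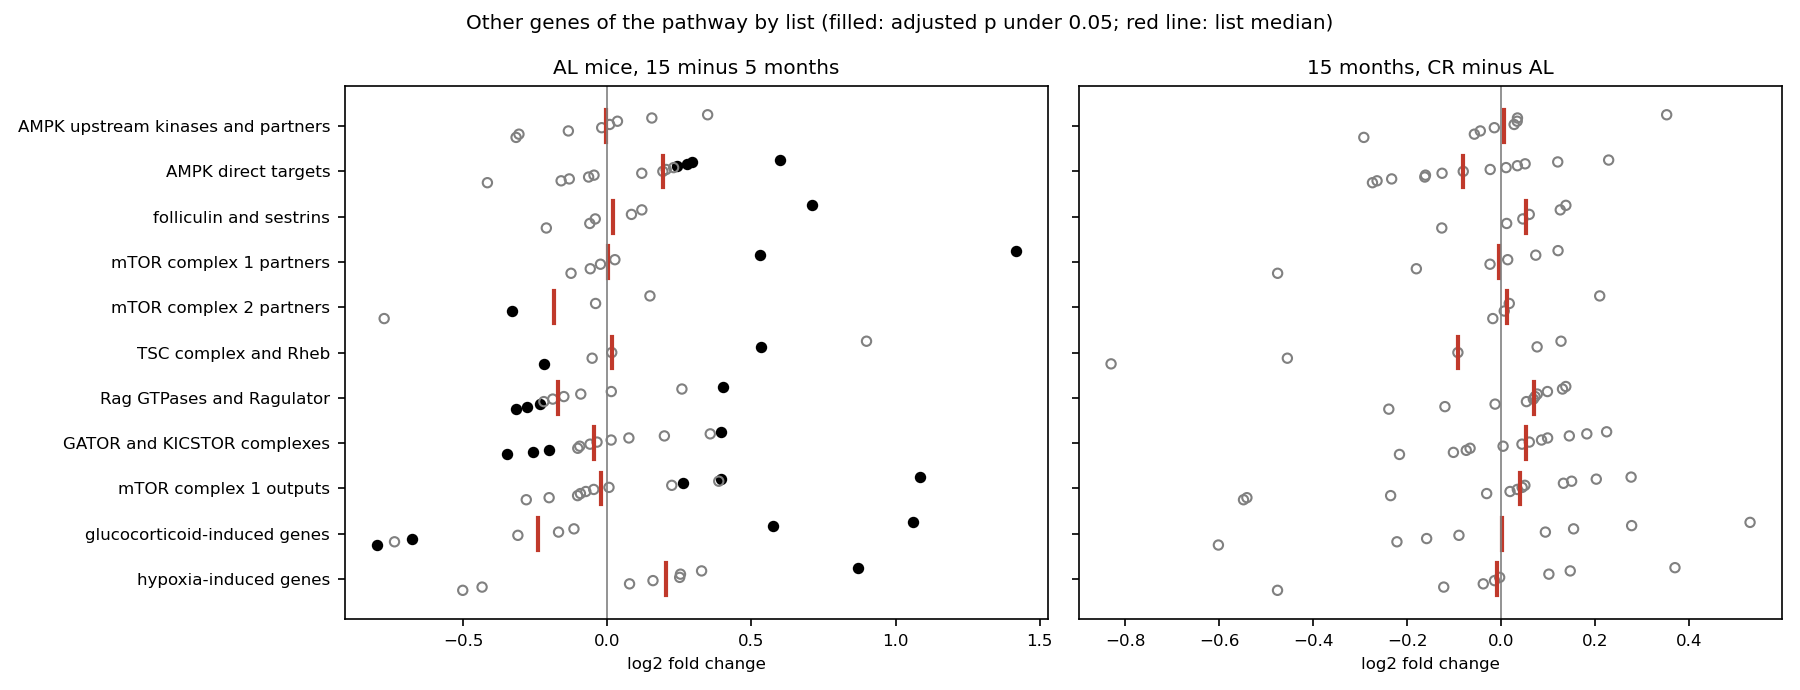
Log2 fold change (horizontal axis) of each gene of 11 pathway lists (rows) for age in AL mice and for diet at 15 months, with filled points for an adjusted p under 0.05 and a red mark at each list's median. The panel for age holds filled points on both sides of 0, with Deptor at 1.42 and Grb10 at 1.08 farthest to the right, and the panel for diet holds none.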

How the data were processed

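RNA was sequenced from CA1 microdissections of 22 mice, with paired-end reads from an unstranded TruSeq kit. Per the study's methods, TopHat placed the reads on mm10, Picard handled duplicates, and the authors estimated FPKM with Cufflinks, correcting for fragment bias and multiply mapped reads. Versions and the annotation release were not given in the sources used here. The deposited FPKM matrix holds 23361 genes and 1 column for each mouse, and all 22 columns were used.

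Groups followed the diet and age of the labels. The 16978 genes that averaged 0.1 FPKM or more were tested on log2(FPKM + 0.1), with limma 3.58.1 in R 4.3.3 (trended eBayes, all 22 libraries, two-sided). Fold changes are on that scale, which understates changes of low genes. P-values were Benjamini-Hochberg adjusted over all tested genes, with a threshold of 0.05, and measure the spread between mice. Any Prkab1 comparison that used a 15-month library was described without a test. The exact permutation test, correlations and shares were computed in Python 3.11.15. The scripts were tested on simulated data.

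The 10 genes and all lists were chosen with earlier results of these data known. Named genes were the 10, and in each pathway list at most 3 called genes with the largest absolute fold change. The values of 1 gene that this rule names are not reported here. The 3 genes most correlated with Prkab1, Ddit4, Mtor and Prkaa2 were also named. Alternatives were other pseudocounts, filters, scalings, variance priors, sample sets, a replicate block, the region score as a covariate and leaving out each library.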

Additional observations from a re-analysis of the deposited data

Results flagged for a closer look

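Mtor in CR mice at 15 months had 1 library far from the others. Replicate 2 of that group had 16.2 FPKM, the next lowest mouse 19.5 FPKM and the highest 21.5 FPKM, so that the gap was 0.627 of the whole range of the 6 mice. It was 1 of 40 groups examined. The criterion, Dixon's, is built so that chance passes it in about 1 in 20 groups. The same library had the lowest Rptor (12.9 FPKM) and Tsc1 (11.1 FPKM) and the highest Prkag1 (41.1 FPKM) of all 22 libraries. Its region score was −0.89, within the range of its group.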

How the results depend on the processing

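The count of genes called for age in AL mice, 3 as reported, was 5 with libraries set to a common median, 6 with only the compared groups in the fit, and 0 with the region score as a covariate. With that covariate 0 of all tested genes were called for age in AL mice. Leaving out 1 library gave 3 to 5 for age in AL mice (5 without CR mouse replicate 2 at 15 months), 0 to 1 for age in CR mice and 0 to 2 for diet at 15 months. The 2 came without CR mouse replicate 0 at 15 months, where 732 genes in all were called, against 126. Ddit4, Prkag2 and Tsc1 were called for age in AL mice in 9 of 10 other settings and in all 22 fits without 1 library, and Prkaa2 in 4 of 10 and 5 of 22. Some log2 fold changes turned sign, and the cause was not tested. With the region score, Prkaa2 went from 0.56 to −0.084 for age in AL mice and from 0.32 to −0.1126 for age in CR mice, and age in CR mice was 0.05853 for Prkag2 and 0.02361 for Rptor. With a common median, age was −0.0098 for Rptor in AL mice and −0.002819 for Prkag1 in CR mice. Without 1 library, age in CR mice was −0.04209 to 0.03624 for Prkag1 and −0.04029 to 0.04281 for Rptor. Diet at 15 months was −0.008163 to 0.08903 for Prkaa1, −0.0711 to 0.01279 for Mtor, −0.001713 to 0.08138 for Rptor and −0.1453 to 0.004181 for Tsc1. Diet at 5 months was −0.03495 to 0.01401 for Prkag2 and −0.04928 to 0.04921 for Ddit4, and the interaction for Rptor was −0.07693 to 0.006168. Of 1472 recomputed values of tested differences 1421 kept their direction and side of the threshold. Depth is unknown, so its limit could not be given.

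With the replicate number as a block (replicate block), 4 genes were called for age in AL mice (Prkaa2 in addition) and Prkag1 for age in CR mice was −0.0126. Mice sharing a number did not deviate together: of 31 pairs the correlation was −0.139 to 0.163 and above 0.1 in 2.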

Other observations

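By Pearson correlation of log2 levels over the 22 libraries, the genes most like Prkab1 were Srsf5 (0.832) and Hnrpdl (0.784), which encode RNA-binding proteins, and Abhd16a (0.767). Those most like Ddit4 were Sh3bp5 (0.894), Rchy1 (0.894) and Npas1 (0.884), and those most like Prkaa2 were Zbtb10 (0.948), Lmbrd1 (0.939) and Myo5a (0.931). For Mtor they were Spen (0.853), Dync1h1 (0.840) and Ern1 (0.833). These genes were picked as the highest of all tested genes with a mean of at least 1 FPKM, and the values are a description of 22 libraries that share diet, age and tissue content.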
